A study of Equus asinus with 12 samples.

Results

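The proteasome genes of donkey skeletal muscle were followed through 12 RNA-seq libraries of 2 strains and 2 muscles. The members were chosen by name: every row of the deposited table named PSMA to PSMG with a number after it, taking the row with the highest mean where a name had several. Such letters stood at the head of 55 rows and 48 names. One of these, PSMC3IP, is no proteasome subunit (mean 2.09 FPKM) and was left out, so that 47 genes of the 27084 loci remained. FPKM are fragments per kilobase of transcript, scaled to the mapped fragments of the library, so levels are given per length. Of the 47 genes, 44 reached 1 FPKM in at least 3 libraries, as did 12408 of all loci, and only these 44 were tested. The choice by name used no measured value beyond the row taken for a name.

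The animals were Dezhou donkeys (Equus asinus) aged 24 months, a Chinese breed with the strains Wutou and Sanfen. Each group held 3 libraries: Wutou gluteal, Wutou longissimus, Sanfen gluteal and Sanfen longissimus. Gluteal muscle is the muscle mass of the hip, and longissimus dorsi runs along the back. The 12 libraries came from 6 donkeys, per the design text, but which donkey gave which library is not stated. The p-values therefore measure the spread between libraries, which may be partly technical. Gluteal and longissimus libraries of a strain may also share donkeys. The tests between muscles and of the interaction treated them as independent, except where the replicate number is used as a block. Values of a group are given below in the order of replicates 1, 2 and 3.

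The proteasome breaks down proteins that carry chains of ubiquitin. Its core is a barrel in which rings of alpha subunits (PSMA genes) gate the entry and rings of beta subunits (PSMB genes) hold the cutting sites. A cap, built of ATPases (PSMC) and other subunits (PSMD), binds, unfolds and feeds in the substrate, while activators (PSME) can sit in its place. In skeletal muscle the pathway is known for the removal of contractile proteins during wasting.

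Muscle identity was clear in every library: 20 muscle fibre genes were found of 23 listed, and their summed level was 40603 to 55135 FPKM per library. The summed level of 16 leukocyte genes found was 13.7 to 23.8 FPKM, with CD3E, a defining T cell gene, at 0.0456 to 0.4003 FPKM. In bulk muscle, fewer cells of a type and less RNA per cell cannot be told apart. All loci together summed to 214564 to 319767 FPKM per library, and the proteasome genes to 638 to 840 FPKM, or 0.247% to 0.318%. Read numbers are not recorded in the values, so depth is unknown and no counting interval can be given. Both Sanfen gluteal replicate 1 and Sanfen longissimus replicate 2 stood apart. Their 6 fast fibre genes summed to 8522 and 5869 FPKM, against 11636 to 18406 FPKM in the other libraries, and their 6 slow fibre genes to 7000 and 4723 FPKM, against 1805 to 3630 FPKM.

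Within the core, the beta ring genes stood above the alpha ring genes. The 7 kept beta ring genes averaged 24.4 FPKM (PSMB1) to 51.6 FPKM (PSMB6), with a median of 37.5 FPKM. The 6 kept alpha ring genes averaged 5.48 FPKM (PSMA4) to 36.3 FPKM (PSMA7), with a median of 10.0 FPKM. PSMA7 was the highest alpha ring gene in 12 of 12 libraries. Every kept beta ring gene lay above every alpha ring gene other than PSMA7, also in 12 of 12. The summed beta ring was 2.60 to 4.28 times the summed alpha ring per library; the alpha sum lacks PSMA6. The median over all kept loci was 1.89 FPKM.

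Some rows of the table limit how the alpha ring can be read. PSMA6 had no row of its own; the locus that carries its name together with KIAA0391 averaged 3.94 FPKM, and it was not counted among the members. PSMA8, the alpha subunit known from testis in mouse, averaged 0.0250 FPKM. PSMB11, the beta subunit known from the thymus in mouse and human, was listed at 0 in 11 libraries and at 0.0489 FPKM in Wutou gluteal replicate 1. These genes and PSMB9 were the 3 that did not reach the level for testing.

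The cap genes averaged 2.08 to 37.7 FPKM. The 6 base ATPases had a median of 17.6 FPKM, with PSMC3 highest at 37.7 FPKM and PSMC1 lowest at 6.01 FPKM. The 14 other cap subunits had a median of 9.91 FPKM, with PSMD2, a ubiquitin receptor and scaffold of the base, highest at 36.8 FPKM and PSMD10 lowest at 2.08 FPKM. PSMD10, PSMD5 (2.71 FPKM) and PSMD9 (2.72 FPKM) are known as chaperones of base assembly that leave the finished particle. By their names they are counted here with the cap genes. The activator genes averaged 1.53 FPKM (PSME3) to 21.0 FPKM (PSME4), and PSMF1, which encodes an inhibitor of the core, 4.37 FPKM. The 4 assembly chaperone genes of the core averaged 0.702 FPKM (PSMG2) to 18.0 FPKM (PSMG4). PSMG2 was spread over 5 rows, and a further locus described as assembly chaperone 2 averaged 2.31 FPKM, so the level of PSMG2 is uncertain. PSME3 had 1 row that it shared with other gene names, so its level may include theirs and is uncertain too.

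**Figure D1:**
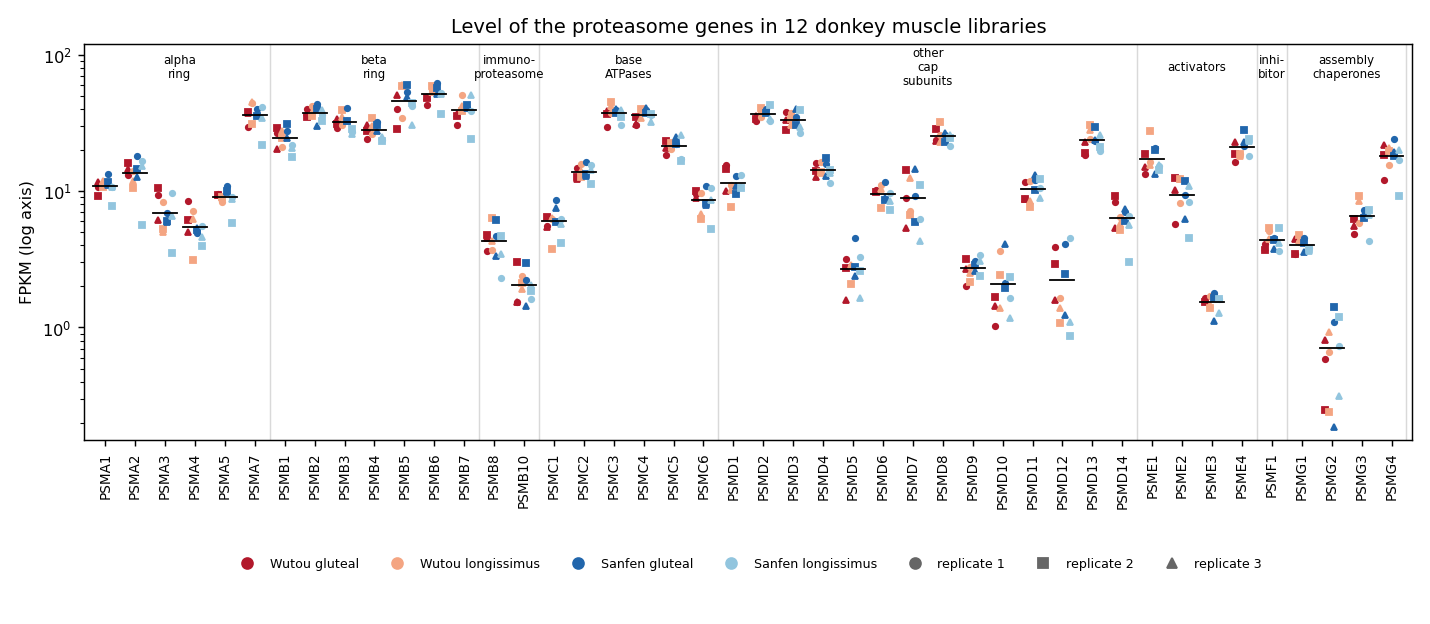
FPKM (log axis) of the 44 tested proteasome genes, ordered by role; each mark is 1 library, coloured by group and shaped by replicate, and the bar is the mean of 12 libraries. The beta ring genes average 24.4 to 51.6 FPKM, while the alpha ring genes other than PSMA7 lie below them.

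Variation between libraries was modest for most of the genes. The coefficient of variation over 12 libraries had a median of 17.1% for the 44 genes. For the 34 of them with at least 5 FPKM it was 16.6%, against 23.4% for all kept loci from 5 FPKM to the level of the highest member. Those 34 genes had a median level of 17.6 FPKM and those loci one of 9.04 FPKM, so these sets were not matched in level. PSMD2 (9.26%), PSMC4 (10.0%) and PSMB2 (10.0%) varied least. PSMD12, a cap scaffold subunit, varied most (58.6%), with 3.89, 2.896 and 1.598 FPKM in Wutou gluteal, 1.63, 1.08 and 1.39 in Wutou longissimus, 4.06, 2.46 and 1.23 in Sanfen gluteal and 4.503, 0.872 and 1.09 in Sanfen longissimus libraries. Replicate 1 had the highest PSMD12 in each of the 4 groups. PSMD7, a partner of the deubiquitinase PSMD14 in the lid, varied by 39.6%, with 8.85, 14.3 and 5.37 FPKM in Wutou gluteal, 7.098, 6.72 and 12.4 in Wutou longissimus, 9.14, 5.96 and 14.5 in Sanfen gluteal and 6.26, 11.1 and 4.31 in Sanfen longissimus libraries. In each of the 4 groups 1 library of PSMD7 lay well above the other two.

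Single libraries stood out across many of the genes. Sanfen longissimus replicate 2 held the lowest value of 17 of the 44 genes and lay below the 12-library mean in 31. All 6 alpha and all 7 beta ring genes were below it there, with median deviations of -0.62 and -0.24 in log2(FPKM + 1), while the median over the 20 cap genes was -0.09 and over all kept loci 0.04. Some related loci were lowest in that library too, but not all. POMP, the maturation factor of the core, had 2.35 FPKM there and 3.59 to 6.36 FPKM elsewhere. The locus described as the cap subunit DSS1 had 4.01 FPKM there and 8.10 to 16.7 FPKM elsewhere. The locus of KIAA0391 and PSMA6 was also lowest there (2.55 FPKM). KIAA0368, described as ECM29, had 35.8 FPKM there (range 32.7 to 54.4), and the assembly chaperone 2 locus 2.20 FPKM (range 1.62 to 2.92). The 22 tested partner genes listed below had a mean deviation of 0.02 and their highest sum, 387 FPKM, in that library. Sanfen gluteal replicate 1 held the highest value of 13 genes and lay above the mean in 42 of 44, with a median deviation of 0.16, beside 0.13 over all kept loci. The part of fibre make-up in these values was not tested.

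The rings did not keep 1 ratio. In Wutou longissimus replicate 2 the median deviation was -0.24 for the alpha ring and 0.20 for the beta ring. Its beta to alpha ratio of summed FPKM was 4.17, close to the 4.28 of Sanfen longissimus replicate 2, and the other 10 libraries had 2.60 to 3.56. The ratio was 2.86 ± 0.218 in Wutou gluteal and 3.38 ± 0.720 in Wutou longissimus muscle (SD, n = 3 each). In Sanfen it was 3.30 ± 0.230 in gluteal and 3.31 ± 0.8704 in longissimus muscle (SD, n = 3 each). Both longissimus groups thus overlapped their gluteal groups.

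**Figure D2:**
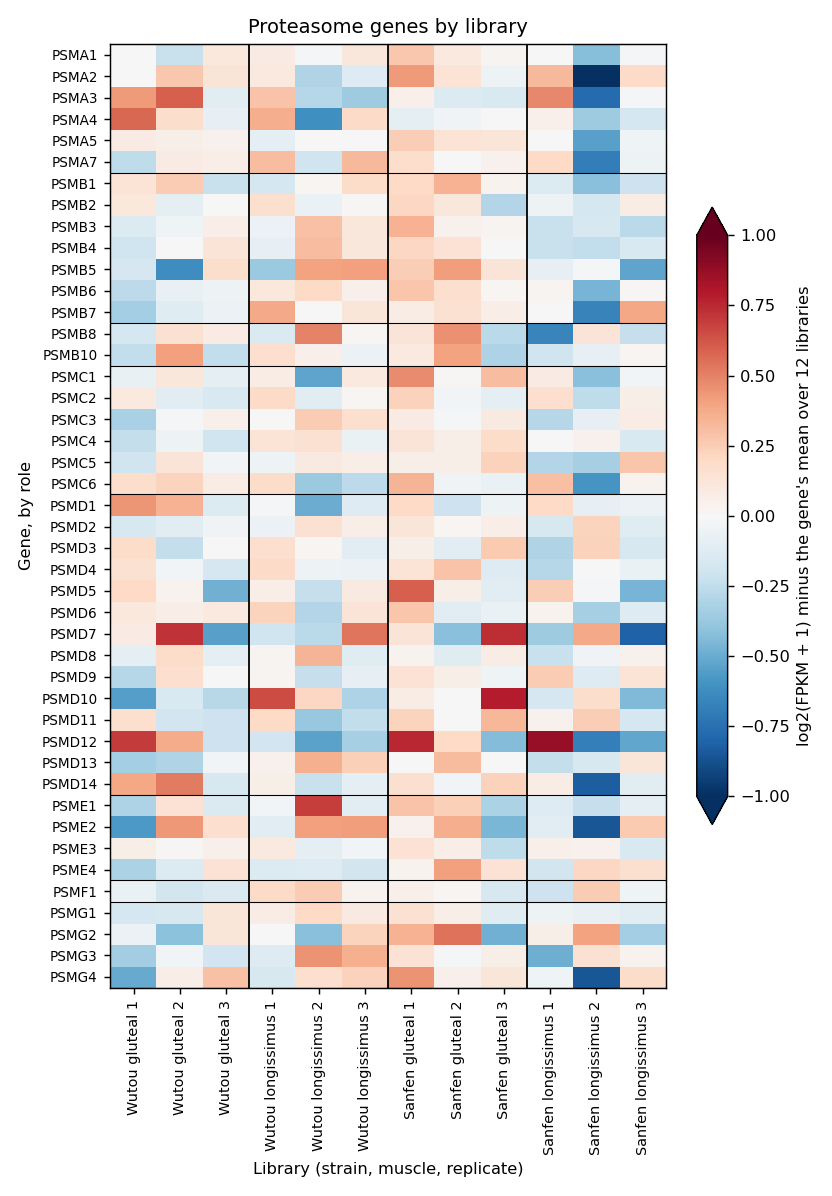
Deviation of log2(FPKM + 1) from the gene's mean over 12 libraries, for 44 proteasome genes by role (rows) and 12 libraries (columns); red is above and blue below the mean, and colours stop at 1. Sanfen longissimus replicate 2 is blue through the alpha and beta rings, and Sanfen gluteal replicate 1 is red in 42 of 44 genes.

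**Figure D3:**
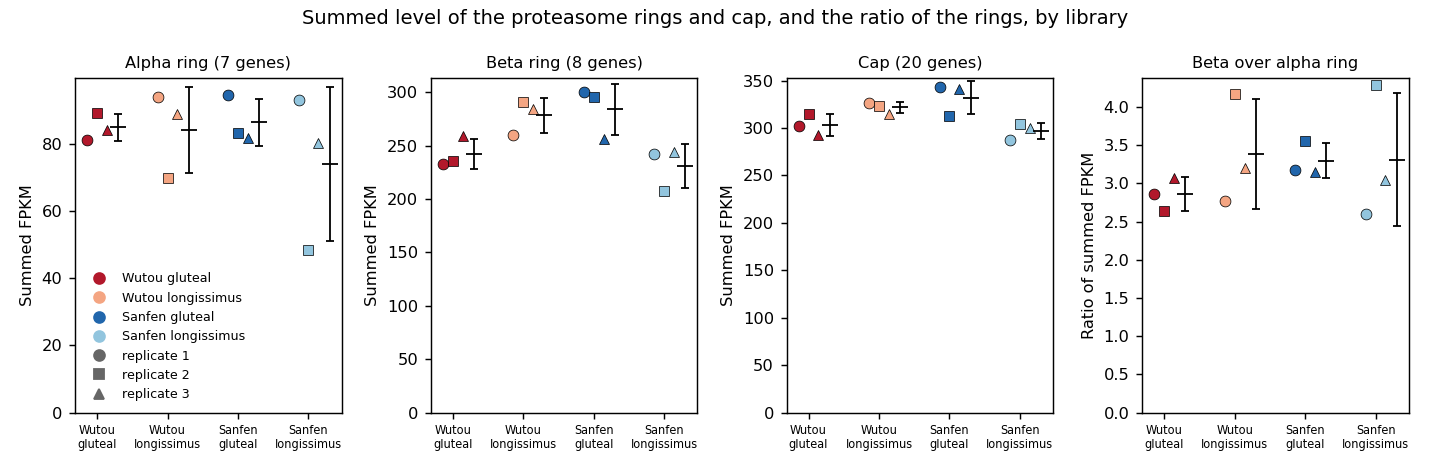
Summed FPKM of the alpha ring, the beta ring and the cap, and the beta to alpha ratio, in each library by group, with the group mean and SD (n = 3) right of the marks. The lowest alpha sums, 48.5 and 69.7 FPKM, belong to replicate 2 of the Sanfen and Wutou longissimus groups, which have the highest ratios, 4.28 and 4.17.

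The catalytic sites sit on 3 beta subunits, which the immunoproteasome replaces by its own forms: PSMB5 by PSMB8, PSMB6 by PSMB9 and PSMB7 by PSMB10. The standard forms dominated in each library. PSMB8 had 3.63, 4.805 and 4.51 FPKM in Wutou gluteal, 3.73, 6.37 and 4.28 in Wutou longissimus, 4.72, 6.17 and 3.34 in Sanfen gluteal and 2.296, 4.71 and 3.46 in Sanfen longissimus libraries. PSMB5, its standard partner, had 39.8, 28.7 and 50.7 FPKM in Wutou gluteal, 34.4, 59.3 and 59.8 in Wutou longissimus, 53.3, 60.3 and 49.2 in Sanfen gluteal and 42.3, 44.3 and 30.7 in Sanfen longissimus libraries. PSMB8 was thus 5.43% to 16.7% of PSMB5, and replicate 2 had the highest PSMB8 in 4 of 4 groups.

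PSMB9 had 0.198, 0.686 and 0.418 FPKM in Wutou gluteal, 0.308, 0.544 and 0.325 in Wutou longissimus, 0.432, 0.468 and 0.548 in Sanfen gluteal and 0.241, 0.356 and 0.369 in Sanfen longissimus libraries. PSMB6 had 42.5, 48.5 and 49.3 FPKM in Wutou gluteal, 54.98, 58.9 and 52.9 in Wutou longissimus, 62.1, 57.5 and 51.9 in Sanfen gluteal and 52.1, 36.9 and 51.6 in Sanfen longissimus libraries. The ratio of PSMB9 to PSMB6 was 0.463% to 1.42%, and the Wutou gluteal values of PSMB6 lay below those of both Wutou longissimus and Sanfen gluteal muscle without overlap. PSMB10 had 1.54, 3.01 and 1.55 FPKM in Wutou gluteal, 2.39, 2.13 and 1.91 in Wutou longissimus, 2.23, 2.99 and 1.44 in Sanfen gluteal and 1.62, 1.85 and 2.05 in Sanfen longissimus libraries. PSMB7 had 30.4, 35.4 and 37.01 FPKM in Wutou gluteal, 50.4, 38.7 and 42.2 in Wutou longissimus, 40.7, 43.1 and 40.6 in Sanfen gluteal and 38.7, 23.97 and 50.9 in Sanfen longissimus libraries. PSMB10 was 3.55% to 8.48% of PSMB7, and PSMB7 in Wutou gluteal muscle again lay below Wutou longissimus and Sanfen gluteal muscle without overlap.

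**Figure D4:**
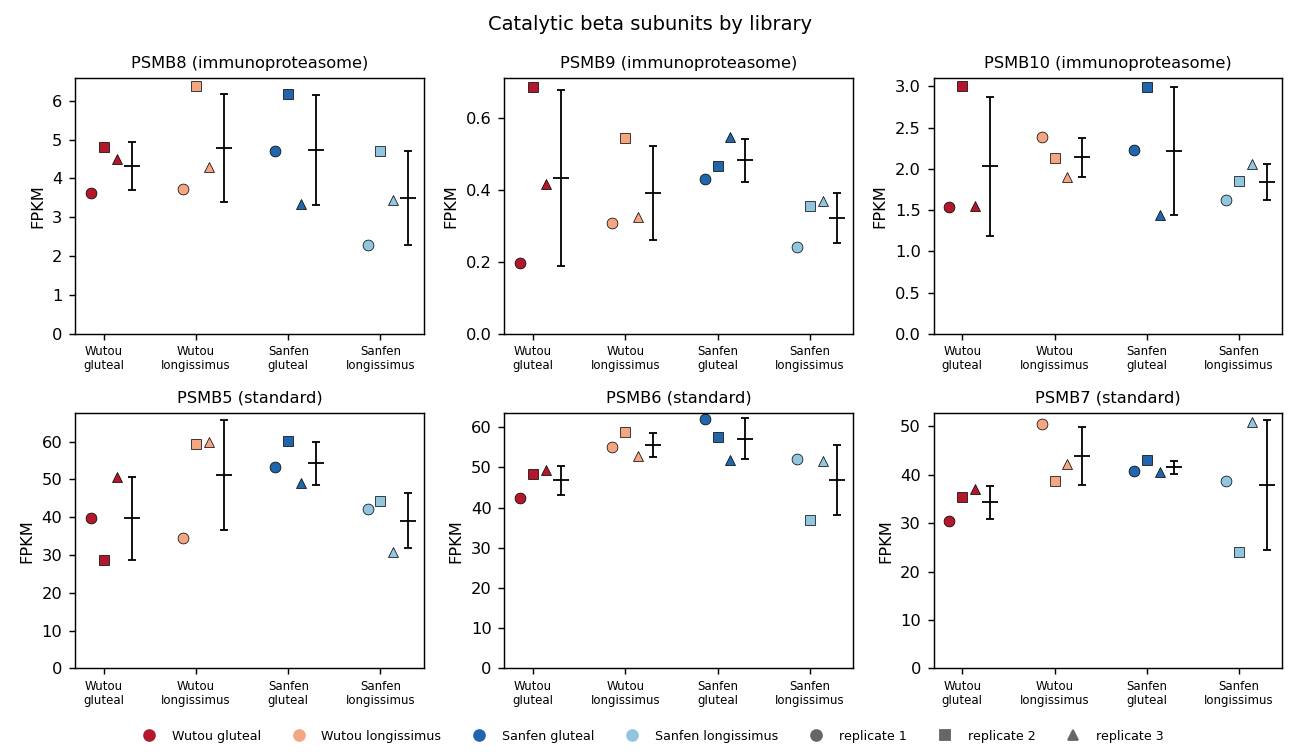
FPKM of the 3 immunoproteasome subunits (top) and the standard subunits they replace (bottom) in each library by group, with the group mean and SD (n = 3); each panel has its own scale from 0. PSMB6 and PSMB7 are lowest in Wutou gluteal muscle apart from Sanfen longissimus replicate 2.

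In the RefSeq donkey annotation PSMB9 and PSMB8 are neighbours with only TAP1 between them, and TAP2 follows; the TAP genes encode the transporter that carries peptides to MHC class I. TAP1 had 1.66 to 3.82 FPKM and TAP2 1.01 to 2.49 FPKM over the 12 libraries. Of 16 genes listed for MHC class I loading and interferon response, 14 were found and 13 tested, and 0 passed in any of the 7 comparisons. The 13 tested genes had their highest mean deviation in Wutou gluteal replicate 2, 0.31 in log2(FPKM + 1). The next highest was 0.16 in Sanfen gluteal replicate 1. The sum of the 14 found genes was highest in Sanfen gluteal replicate 2 (162 FPKM). The genes of this set did not share 1 highest library. PSMB9, PSMB10, PSME2 and TAP2 were highest in Wutou gluteal replicate 2, PSMB8 and PSME1 in Wutou longissimus replicate 2, and TAP1 and B2M, the light chain of MHC class I, in Sanfen gluteal replicate 2. In Wutou gluteal replicate 2 the endothelial genes had their highest sum, 94.4 FPKM, with a mean deviation of 0.57 in log2(FPKM + 1), and the fibroblast genes had a mean deviation of 0.45. The leukocyte genes had their highest sum there too, 23.8 FPKM, of which LYZ gave 7.15 FPKM, but their mean deviation of 0.10 was exceeded in 3 other libraries. Of the T cell genes, CD3D (0.532 FPKM) and CD2 (0.508 FPKM) were highest in that library and CD3E (0.157 FPKM) was not. The part of these cell types was not tested.

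PSME1 and PSME2 form the activator that interferon induces, and they are neighbours in the RefSeq annotation with only EMC9 between them. PSME1 had 13.3, 18.6 and 15.1 FPKM in Wutou gluteal, 16.4, 27.7 and 15.5 in Wutou longissimus, 20.6, 19.9 and 13.3 in Sanfen gluteal and 15.3, 14.2 and 15.7 in Sanfen longissimus libraries. PSME2 had 5.72, 12.5 and 10.2 FPKM in Wutou gluteal, 8.25, 12.3 and 12.4 in Wutou longissimus, 9.29, 11.9 and 6.29 in Sanfen gluteal and 8.32, 4.54 and 10.98 in Sanfen longissimus libraries. Wutou longissimus replicate 2 stood out for PSME1, and every group overlapped every other for PSME2. PSME3, the nuclear activator, had 1.63, 1.54 and 1.62 FPKM in Wutou gluteal, 1.703, 1.38 and 1.47 in Wutou longissimus, 1.797, 1.64 and 1.12 in Sanfen gluteal and 1.61, 1.61 and 1.27 in Sanfen longissimus libraries. PSME4, the large activator known for acting on histones, had 16.4, 18.8 and 23.01 FPKM in Wutou gluteal, 18.8, 18.9 and 18.2 in Wutou longissimus, 21.3, 27.9 and 23.03 in Sanfen gluteal and 18.1, 24.1 and 23.3 in Sanfen longissimus libraries. PSME4 was the highest activator on average, and its Wutou longissimus values lay within the range of the Wutou gluteal values.

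The 4 comparisons between 2 groups, their averages over strains and over muscles, and the interaction were tested by limma on log2(FPKM + 1) over all 12408 loci. None of the 44 genes passed an adjusted p of 0.05 in any of the 7 comparisons. Over all loci this background was 0.0242% for gluteal against longissimus muscle in Sanfen, 0% in Wutou and 0% averaged over the strains. For Wutou against Sanfen it was 0.0161% in longissimus, 0.00806% in gluteal muscle and 0% averaged over the muscles, and it was 0.00806% for the interaction. The comparisons share groups, so their values below are not independent of each other.

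In Sanfen, 41 of the 44 genes (93.2%) were higher in gluteal than in longissimus muscle, beside 67.6% of all loci. The shift was largest in the beta ring. The median log2 difference was 0.20 over the members and 0.08 over all loci. It was 0.32 for the beta ring (7 of 7 higher), 0.27 for the alpha ring (6 of 6) and 0.17 for the cap (18 of 20). One gene had an unadjusted p under 0.05, beside 3.57% of all loci. That gene was PSMB1, a beta subunit without a cutting site, with 26.6, 28.9 and 20.5 FPKM in Wutou gluteal, 21.2, 24.4 and 27.5 in Wutou longissimus, 27.8, 30.9 and 24.7 in Sanfen gluteal and 21.8, 17.8 and 20.7 in Sanfen longissimus libraries. All 3 Sanfen gluteal values lay above the 3 Sanfen longissimus values, with a log2 difference of 0.45 (SE 0.19, limma adjusted p = 1).

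The Sanfen groups did not overlap for 7 genes, all higher in gluteal muscle, or 15.9% of the members beside 6.27% of all loci. None was lower without overlap, beside 1.27% of all loci. The 7 were PSMA1, PSMA5, PSMB1, PSMB3, PSMB4, PSMB5 and PSMC4. PSMA5 had 9.57, 9.399 and 9.295 FPKM in Wutou gluteal, 8.36, 9.03 and 8.97 in Wutou longissimus, 10.8, 9.99 and 9.89 in Sanfen gluteal and 8.999, 5.85 and 8.73 in Sanfen longissimus libraries, and its difference was 0.36 (SE 0.17). PSMB3 had 29.01, 31.04 and 33.5 FPKM in Wutou gluteal, 30.7, 39.4 and 34.8 in Wutou longissimus, 41.00, 32.9 and 32.6 in Sanfen gluteal and 27.3, 28.5 and 26.4 in Sanfen longissimus libraries, with a difference of 0.36 (SE 0.18). PSMB4 had 23.9, 27.8 and 30.4 FPKM in Wutou gluteal, 26.1, 34.4 and 29.9 in Wutou longissimus, 32.1, 30.6 and 27.7 in Sanfen gluteal and 23.5, 23.2 and 24.8 in Sanfen longissimus libraries, with a difference of 0.32 (SE 0.18). For PSMB5 the difference was 0.47 (SE 0.28). In the other roles the smallest p belonged to PSMC1 (0.39, SE 0.21), PSMD14 (0.41, SE 0.25), PSMG4 (0.44, SE 0.29), PSMB8 (0.36, SE 0.25) and PSME1 (0.22, SE 0.25), each with overlapping groups. Their adjusted p, like that of each member here, was 1.

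The count of genes higher in Sanfen gluteal muscle rested partly on the libraries that stood apart and on scaling. Without Sanfen longissimus replicate 2, 33 of 44 genes were higher (median 0.15), and 10 of the 15 core genes in place of 15. The groups of 3 and 2 libraries then did not overlap, with gluteal higher, for 22.7% of the members beside 17.3% of all loci. Without that library and Sanfen gluteal replicate 1, 31 were higher (median 0.10), with a beta ring median of 0.26 and an alpha ring median of -0.001. With median-of-ratios rescaling, under which the median of all loci was 0.01, 35 were higher (median 0.08), and with quantile normalization also 35 (median 0.12). With the replicate number as a block, no member had an unadjusted p under 0.05, PSMB1 included. Slow fibre genes were shifted the same way (5 of 6 higher, median 0.50), as were endothelial genes (8 of 9 higher, median 0.20). Fast fibre genes were too (4 of 6 higher, median 0.21). Leukocyte genes (3 of 9 higher, median -0.02) and fibroblast genes (3 of 7 higher, median -0.01) were not. None passed, and the part of these lists in the proteasome values was not tested.

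In Wutou, 16 of the 44 genes (36.4%) were higher and 28 lower in gluteal than in longissimus muscle, while 58.6% of all loci were higher. The median log2 difference was -0.07 over the members and 0.05 over all loci. The rings parted: the beta ring had a median of -0.15 (6 of 7 lower) and the alpha ring of 0.17 (4 of 6 higher), while the cap had -0.04 (11 of 20 lower). This split rested largely on Wutou longissimus replicate 2: without it the alpha ring median was 0.03 (3 of 6 higher) and the beta ring median -0.08 (6 of 7 lower), and 12 of the 44 genes were higher. The median over the members was -0.13 without Wutou gluteal replicate 2 and -0.05 without Wutou longissimus replicate 1. One gene had an unadjusted p under 0.05, beside 5.68% of all loci. It was PSMD13, a scaffold subunit of the lid, with 18.4, 18.98 and 23.1 FPKM in Wutou gluteal, 24.2, 30.3 and 27.9 in Wutou longissimus, 23.5, 29.5 and 23.6 in Sanfen gluteal and 19.8, 20.96 and 25.7 in Sanfen longissimus libraries. All Wutou gluteal values of PSMD13 lay below all Wutou longissimus values, with a log2 difference of -0.43 (SE 0.19, limma adjusted p = 0.870).

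Besides PSMD13, the Wutou groups stood apart with lower gluteal values for PSMB6 (-0.25, SE 0.19), PSMB7 (-0.34, SE 0.25) and PSMF1 (-0.29, SE 0.15). These 4 genes were 9.09% of the members, beside 4.18% of all loci. PSMA5 alone was higher without overlap (0.09, SE 0.17), which is 2.27% of the members beside 8.7% of all loci. PSMF1 had 4.11, 3.704 and 3.83 FPKM in Wutou gluteal, 5.100, 5.36 and 4.46 in Wutou longissimus, 4.53, 4.41 and 3.78 in Sanfen gluteal and 3.63, 5.37 and 4.17 in Sanfen longissimus libraries. Its Wutou gluteal values lay below the Wutou longissimus values but within the range of the Sanfen libraries. In the other roles the smallest p belonged to PSMG3 (-0.41, SE 0.21), PSMC4 (-0.24, SE 0.17), PSMA3 (0.42, SE 0.30), PSME1 (-0.29, SE 0.25) and PSMB8 (-0.10, SE 0.25), each with overlapping groups. With median-of-ratios rescaling 9 of the 44 were higher in place of 16, and the median was -0.14. With the replicate number as a block, PSMD13 no longer had an unadjusted p under 0.05, and PSMD12 had one (0.64, adjusted p = 0.659).

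Averaged over the strains, 31 of 44 genes (70.5%) were higher in gluteal muscle, beside 65.9% of all loci. The median was 0.07 beside 0.07 over all loci. With median-of-ratios rescaling the median turned to -0.02 with 17 higher, so no direction can be given. Without Sanfen gluteal replicate 2 the median was 0.04. The members held 0 genes at an unadjusted p under 0.05, beside 6.56% of all loci; with the replicate number as a block there were 2, PSMD12 (adjusted p = 0.570) and PSMD14 (adjusted p = 0.571). The smallest p of a member was that of PSMD14, the deubiquitinase of the lid, with 8.39, 9.28 and 5.405 FPKM in Wutou gluteal, 6.45, 5.16 and 5.72 in Wutou longissimus, 7.02, 6.04 and 7.41 in Sanfen gluteal and 6.55, 3.04 and 5.67 in Sanfen longissimus libraries. Its log2 difference was 0.37 (SE 0.17, limma adjusted p = 0.760), and the groups of both strains overlapped. PSMC1 had the smallest p among the ATPases in this comparison, with 5.54, 6.45 and 5.49 FPKM in Wutou gluteal, 6.28, 3.78 and 6.38 in Wutou longissimus, 8.55, 5.95 and 7.53 in Sanfen gluteal and 6.29, 4.16 and 5.75 in Sanfen longissimus libraries. Its difference was 0.24 (SE 0.15, adjusted p = 0.800), and Wutou longissimus replicate 2 and Sanfen longissimus replicate 2 were the lowest libraries. The smallest p of the other roles belonged to PSMA5 (0.23, SE 0.12), PSMB1 (0.24, SE 0.14), PSMF1 (-0.16, SE 0.11), PSMG3 (-0.12, SE 0.15), PSMB8 (0.13, SE 0.18) and PSME4 (0.09, SE 0.14).

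**Figure D5:**
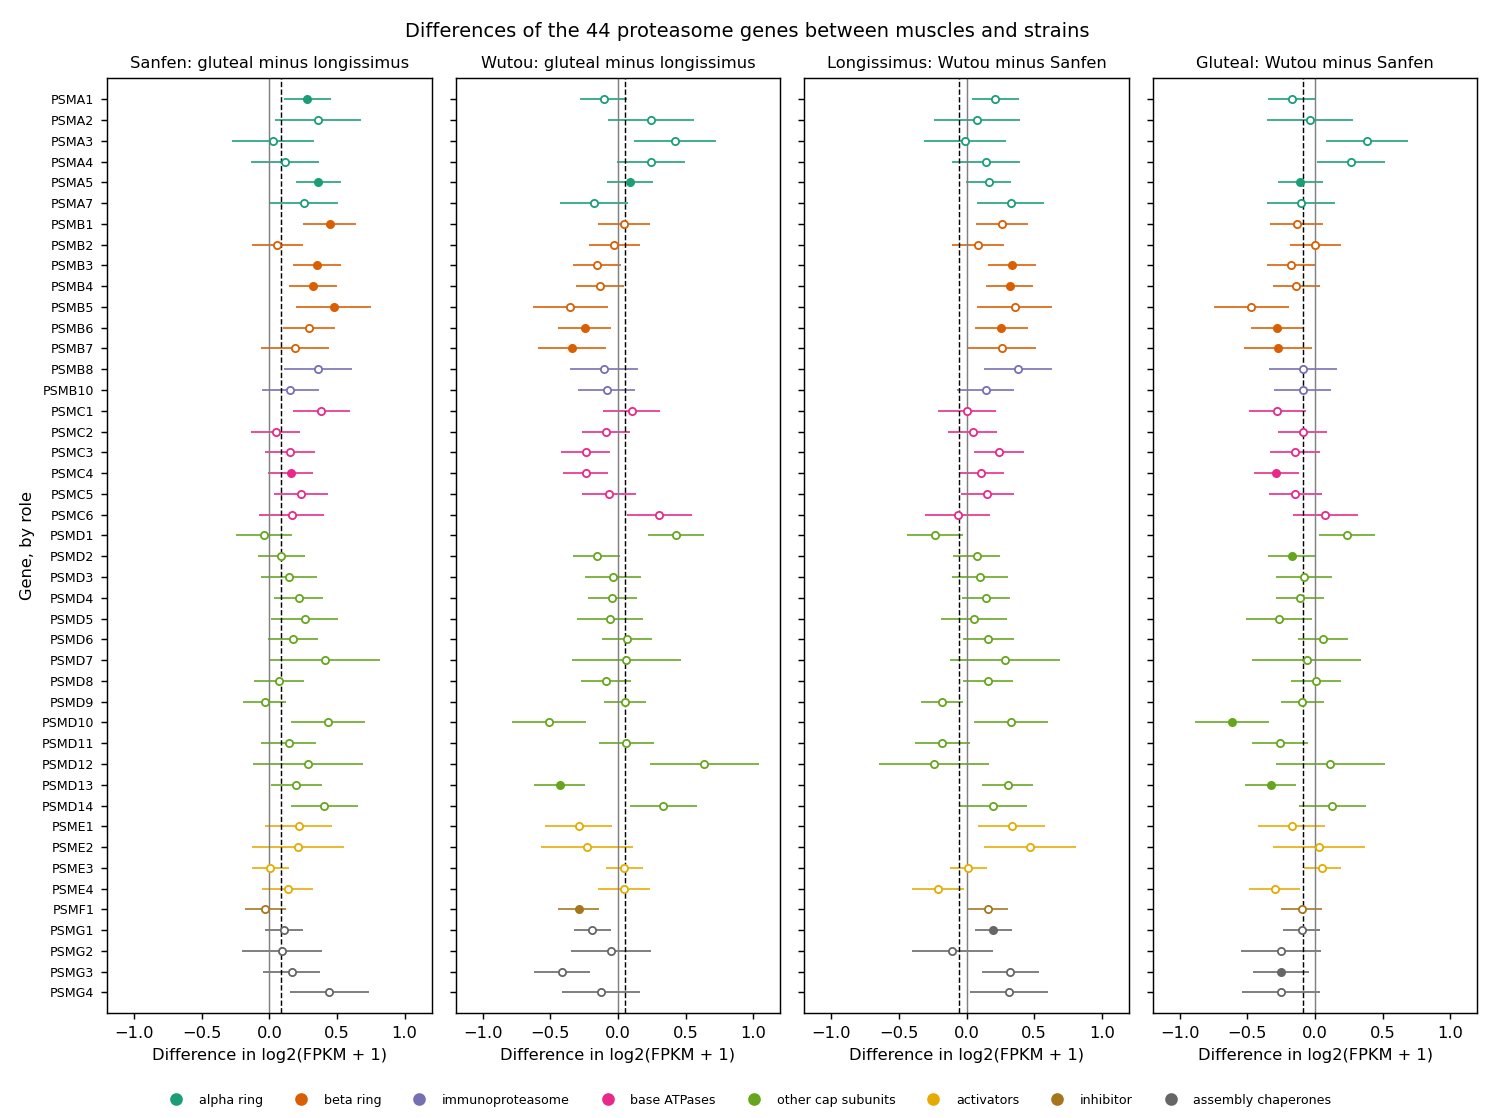
Difference in log2(FPKM + 1) with its standard error for 44 proteasome genes, by role, in 4 comparisons; filled marks have groups that do not overlap, and the dashed line is the median of all 12408 loci. The beta ring lies at a median of 0.32 in Sanfen and -0.15 in Wutou for gluteal minus longissimus muscle.

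In longissimus muscle, 36 of the 44 genes (81.8%) were higher in Wutou than in Sanfen, beside 40.7% of all loci. The median log2 difference was 0.16 over the members and -0.06 over all loci. It was 0.26 for the beta ring (7 of 7 higher), 0.15 for the alpha ring (5 of 6) and 0.10 for the cap (15 of 20). No member had an unadjusted p under 0.05, beside 5.52% of all loci. The groups did not overlap for PSMB3, PSMB4, PSMB6 and the assembly chaperone PSMG1, each higher in Wutou, or 9.09% of the members beside 3.88% of all loci. None was lower without overlap, beside 7.92% of all loci.

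PSMB3 had the smallest p, with a log2 difference of 0.33 (SE 0.18, limma adjusted p = 0.854). PSMA7 led the alpha ring, with 29.7, 37.8 and 37.5 FPKM in Wutou gluteal, 44.4, 30.9 and 44.9 in Wutou longissimus, 40.3, 35.7 and 36.8 in Sanfen gluteal and 41.2, 21.7 and 34.3 in Sanfen longissimus libraries. Its difference was 0.33 (SE 0.25, adjusted p = 0.872), and the groups overlapped. PSMC3 led the ATPases, with 29.7, 37.01 and 38.8 FPKM in Wutou gluteal, 37.5, 44.9 and 42.2 in Wutou longissimus, 39.6, 37.1 and 39.8 in Sanfen gluteal and 30.5, 35.2 and 39.5 in Sanfen longissimus libraries. Its difference was 0.24 (SE 0.18, adjusted p = 0.870), and the groups overlapped. They overlapped too for the first genes of the other roles, PSMD13 (0.30, SE 0.19), PSMG3 (0.32, SE 0.21), PSMB8 (0.38, SE 0.25), PSME2 (0.47, SE 0.34) and PSMF1 (0.16, SE 0.15). Without Sanfen longissimus replicate 2, 31 of 44 genes were higher (median 0.08) and 11 of the 15 core genes (median 0.07) in place of 14. Groups without overlap, Wutou higher, were then 22.7% of the members beside 11.4% of all loci. With median-of-ratios rescaling the median was 0.24, with 38 genes higher. Fast fibre genes were shifted the same way, with 6 of 6 higher in Wutou longissimus muscle (median 0.66). Slow fibre genes mostly went the other way (2 of 6 higher, median -0.31). None passed, and the part of fibre genes in these values was not tested.

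In gluteal muscle, 33 of the 44 genes were lower in Wutou than in Sanfen, but all loci were shifted the same way. Of the members 25% were higher, beside 34.2% of all loci. The median log2 difference was -0.11 over the members and -0.09 over all loci. It was -0.18 for the beta ring (6 of 7 lower), -0.07 for the alpha ring (4 of 6) and -0.10 for the cap (14 of 20). One gene had an unadjusted p under 0.05, beside 4.86% of all loci. It was PSMD10, known in human also as gankyrin, with 1.03, 1.66 and 1.45 FPKM in Wutou gluteal, 3.65, 2.42 and 1.398 in Wutou longissimus, 2.12, 1.96 and 4.12 in Sanfen gluteal and 1.64, 2.34 and 1.18 in Sanfen longissimus libraries. Its Wutou gluteal values lay below its Sanfen gluteal values, by -0.61 (SE 0.27, limma adjusted p = 0.963), and Sanfen gluteal replicate 3 was the highest library.

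The gluteal groups did not overlap for 8 genes, all lower in Wutou, or 18.2% of the members beside 8.68% of all loci. None was higher without overlap, beside 2.19% of all loci. The 8 were PSMA5, PSMB6, PSMB7, PSMC4, PSMD2, PSMD10, PSMD13 and the assembly chaperone PSMG3. PSMC4 had 30.3, 34.7 and 31.2 FPKM in Wutou gluteal, 39.6, 40.1 and 34.2 in Wutou longissimus, 39.3, 37.4 and 40.99 in Sanfen gluteal and 35.98, 37.03 and 32.2 in Sanfen longissimus libraries, and its difference was -0.29 (SE 0.17, adjusted p = 0.963). PSMG3 had 4.86, 6.297 and 5.51 FPKM in Wutou gluteal, 5.82, 9.14 and 8.51 in Wutou longissimus, 7.22, 6.39 and 6.76 in Sanfen gluteal and 4.298, 7.28 and 6.63 in Sanfen longissimus libraries, and its difference was -0.25 (SE 0.21, adjusted p = 0.965). PSMA3 led the alpha ring with the opposite direction, at 0.38 (SE 0.30, adjusted p = 0.965), and with 9.34, 10.6 and 6.11 FPKM in Wutou gluteal, 8.38, 5.32 and 5.02 in Wutou longissimus, 6.96, 5.999 and 5.92 in Sanfen gluteal and 9.71, 3.52 and 6.58 in Sanfen longissimus libraries. The lowest PSMA3 of all was that of Sanfen longissimus replicate 2. Overlapping groups were also found for PSMB5 (-0.47, SE 0.28), PSME4 (-0.30, SE 0.19), PSMF1 (-0.10, SE 0.15) and PSMB10 (-0.09, SE 0.21), which had the smallest p of their roles.

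The 6 slow fibre genes were all lower in Wutou gluteal muscle (median -0.97), while 4 of 6 fast fibre genes were higher (median 0.38). None passed, and the part of fibre genes in the proteasome values was not tested. The overall shift of the proteasome genes depended on scaling. With median-of-ratios rescaling the median of the members was -0.01 with 19 higher in place of 11, and with quantile normalization -0.02 with 16 higher. Averaged over the muscles, 29 of 44 genes (65.9%) were higher in Wutou, beside 35.3% of all loci. Of the members 0 had an unadjusted p under 0.05, beside 5.97% of all loci. The median was 0.02 beside -0.07 over all loci. That median was 0.11 with 37 higher under median-of-ratios rescaling, and -0.004 with 22 higher without Sanfen longissimus replicate 2. The smallest p was that of PSME4 (-0.26, SE 0.15, limma adjusted p = 0.855). In longissimus muscle alone PSME4 differed by -0.21 (SE 0.19), and in gluteal muscle by -0.30 (SE 0.19). Averaged over the muscles, the other roles were led by PSMC1 (-0.14, SE 0.16), PSMB8 (0.15, SE 0.19), PSMB4 (0.09, SE 0.14) and PSMF1 (0.03, SE 0.12). Among the assembly chaperones PSMG2 came first, but no single test between strains is given for it. It reached 1 FPKM only in Sanfen libraries, so it was kept only through the strain in which it is higher. PSMG2 stays in the counts and medians of the 44 genes.

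The interaction asks whether the muscle difference of Wutou departs from that of Sanfen. It was below 0 for 37 of 44 genes, and above 0 for 15.9% of the members beside 45.4% of all loci. The median was -0.28 over the members and -0.03 over all loci. In the beta ring 7 of 7 were below 0 (median -0.51), in the alpha ring 4 of 6 (median -0.19) and in the cap 16 of 20 (median -0.22). No gene passed; the adjusted p was 0.9998 for each. Both genes with an unadjusted limma p under 0.05, beside 2.6% of all loci, were PSMD genes. They were PSMD10 (-0.94, SE 0.39), a chaperone of base assembly, and PSMD13 (-0.63, SE 0.27), a subunit of the lid. PSMB5 had the smallest p of the beta ring (-0.83, SE 0.39), and the other roles were led by PSMG3 (-0.58, SE 0.29), PSMC4 (-0.40, SE 0.24), PSMA1 (-0.39, SE 0.24), PSME1 (-0.51, SE 0.35), PSMB8 (-0.47, SE 0.35) and PSMF1 (-0.26, SE 0.21). Without Sanfen longissimus replicate 2 and Sanfen gluteal replicate 1, 12 genes were above 0 in place of 7, the median was -0.22 and the beta ring median -0.32 (6 of 7 below 0). With the replicate number as a block, 0 members had an unadjusted p under 0.05. Fibre genes were shifted the same way: 6 of 6 slow fibre genes (median -0.69) and 5 of 6 fast fibre genes (median -0.42) lay below 0. So did 17 of 20 muscle fibre genes (median -0.31), a list that holds the slow fibre genes and all fast fibre genes but ACTN3. The part of fibre genes in these values was not tested.

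PSMG4 had 12.1, 18.5 and 21.7 FPKM in Wutou gluteal, 15.7, 19.8 and 20.8 in Wutou longissimus, 24.3, 18.2 and 19.2 in Sanfen gluteal and 17.02, 9.28 and 20.1 in Sanfen longissimus libraries, and in Sanfen it differed by 0.44 between gluteal and longissimus muscle (SE 0.29, adjusted p = 1). Its low value was that of Sanfen longissimus replicate 2. PSMG2, on the row with the highest mean, had 0.592, 0.2500 and 0.806 FPKM in Wutou gluteal, 0.666, 0.241 and 0.9297 in Wutou longissimus, 1.104, 1.42 and 0.187 in Sanfen gluteal and 0.728, 1.19 and 0.312 in Sanfen longissimus libraries, and all 4 groups overlapped. PSMA4 had 8.45, 6.16 and 5.002 FPKM in Wutou gluteal, 7.18, 3.15 and 6.24 in Wutou longissimus, 4.92, 5.197 and 5.36 in Sanfen gluteal and 5.56, 3.96 and 4.61 in Sanfen longissimus libraries, and averaged over the muscles it differed by 0.20 between Wutou and Sanfen (SE 0.19, adjusted p = 0.897). PSMD11, a lid scaffold subunit, had 11.6, 8.797 and 8.73 FPKM in Wutou gluteal, 11.9, 7.62 and 8.48 in Wutou longissimus, 12.1, 10.2 and 13.1 in Sanfen gluteal and 10.5, 12.3 and 8.94 in Sanfen longissimus libraries, and differed by -0.22 between Wutou and Sanfen averaged over the muscles (SE 0.16, adjusted p = 0.866).

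Partners of the proteasome were followed through a list of 28 genes, of which 24 were found and 22 tested. They include ubiquitin receptors that bring in substrate, the unfolding ATPase VCP and the transcription factor NFE2L1, known to drive proteasome genes. None passed in either direction in any of the 7 comparisons. Their median log2 difference for gluteal against longissimus muscle was 0.08 in Sanfen (12 of 22 higher) and 0.08 in Wutou (14 of 22 higher). For Wutou against Sanfen it was -0.14 in longissimus (8 of 22 higher) and -0.08 in gluteal muscle (7 of 22 higher). NFE2L1 had 18.4, 13.00 and 10.5 FPKM in Wutou gluteal, 12.9, 14.9 and 15.4 in Wutou longissimus, 16.1, 12.7 and 17.4 in Sanfen gluteal and 12.6, 17.4 and 13.6 in Sanfen longissimus libraries, and VCP had 64.9, 59.1 and 62.3 FPKM in Wutou gluteal, 59.2, 69.1 and 63.8 in Wutou longissimus, 64.03, 63.8 and 69.5 in Sanfen gluteal and 53.4, 77.8 and 57.5 in Sanfen longissimus libraries. Both overlapped between all 4 groups.

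POMP, which chaperones the maturing beta ring, had 4.26, 4.603 and 5.48 FPKM in Wutou gluteal, 5.13, 3.59 and 4.17 in Wutou longissimus, 6.16, 6.36 and 4.99 in Sanfen gluteal and 5.78, 2.35 and 4.42 in Sanfen longissimus libraries. It had the smallest p of the list for gluteal against longissimus muscle in Sanfen, with a log2 difference of 0.45 (SE 0.24, adjusted p = 1), and its lowest library was Sanfen longissimus replicate 2. UBQLN2, a shuttle receptor, was singled out after its values were seen. It was listed at 2.38, 2.96 and 1.99 FPKM in Wutou gluteal libraries, at 1.52, 0 and 0 FPKM in Wutou longissimus libraries, and at 0 in the 6 Sanfen libraries. No single test is given for it, since it was kept only through the libraries in which it is high. It stays in the counts and medians of the partner list above. Its relative UBQLN1 was listed at 8.99 to 15.5 FPKM.

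Of the 16 genes listed for ubiquitin supply and its first transfer steps, 13 were found and tested, and 0 passed in either direction. UBB, a source of ubiquitin, had 48.5, 61.9 and 61.4 FPKM in Wutou gluteal, 66.5, 56.4 and 67.8 in Wutou longissimus, 68.4, 57.9 and 74.96 in Sanfen gluteal and 45.7, 35.1 and 60.2 in Sanfen longissimus libraries.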

How the data were processed

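RNA was measured in 12 libraries, 3 for each strain and muscle. The values are FPKM per locus, as the authors deposited them, per the file headers; cutadapt, Bowtie2 and TopHat2 are listed, per the submitters' processing notes. No version or genome build is given in the sources used here. Loci with at least 1 FPKM in at least 3 libraries (12408) entered 1 limma 3.58.1 model (R 4.3.3) over 4 groups on log2(FPKM + 1), with a variance trend and Benjamini-Hochberg adjustment at 0.05. The strain comparison averaged over muscles treated libraries of 1 strain and number as a random block (statmod 1.5.0, correlation 0.188). The model was tested on simulated data, and the outcome of that is not reported here.

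Members and gene lists were chosen with earlier results of these data known. Named were the catalytic pairs, the activators, in each comparison and role the gene with the smallest p, and the highest and lowest genes of each role. Genes whose groups do not overlap, the most and least variable genes, and list genes with the smallest p or as examples were named after their values were seen. RefSeq (47 of 47 members matched) served for names and neighbours only.

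Same-numbered libraries of both muscles deviated together more than differently numbered ones, which comes from the values and not from the labels. The same-numbered pairs had correlations of 0.246, 0.110 and 0.158 in Sanfen and 0.182, 0.165 and 0.0711 in Wutou. Differently numbered pairs of a strain had -0.169 to 0.0126. Alternatives were a pseudocount of 0.1, other filters, rescaling, array weights, summed rows, the replicate block, fewer libraries and, after seeing the data, leaving out 2 libraries together. Figures used Python 3.11.15 with matplotlib 3.10.9.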

Additional observations from a re-analysis of the deposited data

How the results depend on the processing

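No proteasome gene passed an adjusted p of 0.05 in any comparison under any alternative, and the smallest adjusted p reached was 0.560. The medians of the members depended on scaling and on single libraries. With median-of-ratios rescaling the median log2 difference between gluteal and longissimus muscle was 0.079 in Sanfen (0.195 as reported), -0.143 in Wutou (-0.074) and -0.018 averaged over strains (0.073); between Wutou and Sanfen it was 0.235 in longissimus (0.157), -0.007 in gluteal (-0.110) and 0.112 averaged over muscles (0.023). Quantile normalization gave 0.121 for gluteal against longissimus muscle in Sanfen, -0.020 for Wutou against Sanfen in gluteal muscle and -0.190 for the interaction (-0.278). Without both libraries that stood apart, chosen after seeing the data, these were 0.099 for Sanfen, 0.081 for Wutou against Sanfen in longissimus and -0.220 for the interaction. The cause was not tested.

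Leaving out 1 library at a time, the median ran from 0.150 to 0.231 for gluteal against longissimus muscle in Sanfen, from -0.131 to -0.048 in Wutou and from 0.041 to 0.098 averaged over strains, from 0.081 to 0.213 for Wutou against Sanfen in longissimus, from -0.187 to -0.075 in gluteal muscle and from -0.343 to -0.228 for the interaction; averaged over muscles the strain median ran from -0.011 to 0.053. With the replicate block the medians were 0.195 in Sanfen, -0.074 in Wutou, 0.073 averaged and -0.278 for the interaction, and 0 members passed; the block changed no call at an adjusted p of 0.05. At an unadjusted p under 0.05 it left 0 members in place of 1 in Sanfen and 0 in place of 2 for the interaction, gave 2 in place of 0 averaged over strains, and in Wutou gave PSMD12 in place of PSMD13. Without the random block the strain median averaged over muscles was 0.023. Over all loci, calls numbered 3 for the Sanfen muscles and 0 to 5 under the alternatives, 1 of these with the replicate block; 0 and up to 3 in Wutou; 2 and 0 to 7 for the strains in longissimus; 1 and 0 to 3 in gluteal muscle; and 1 and 0 to 5 for the interaction. Averaged over the strains or over the muscles they were 0, and up to 4 or up to 1. Depth is unknown, so the limit it sets on genes near 1 FPKM, such as PSMG2, cannot be given.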
